A study of Mus musculus with 8 samples.

Results

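The genes described here are 10 components of the cell's defence against superoxide and peroxides, measured as polyadenylated RNA in mouse haematopoietic stem cells (HSCs), from which all lineages of blood arise. They are the superoxide dismutases Sod1 and Sod2, the catalase gene Cat, the glutathione peroxidases Gpx1 and Gpx4, the peroxiredoxins Prdx1, Prdx2, Prdx4 and Prdx6, and Nfe2l2, which encodes the transcription factor Nrf2. They were chosen by symbol for their function, not by a measured value, though with earlier results of these data known. Each matched 1 row, giving 10 of the 38172 genes of the deposited table. The cells came from C57BL/6 mice aged 4 months (young) or 24 months (old), called wild type in the study's design, with no treatment stated. At both ages they were sorted fresh from marrow as side population cells positive for Kit and Sca-1, negative for lineage markers and positive for CD150. Each age had 2 biological replicates, numbered 13 and 14, and each replicate was sequenced as 2 technical libraries, which were averaged, so n = 2 per age. Whether a replicate was 1 animal or a pool is not stated in the labels, so the p-values reflect only the variation among the samples at hand.

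Superoxide leaks from the mitochondrial respiratory chain and is made on purpose by NADPH oxidases. Dismutases convert it to hydrogen peroxide, which catalase breaks down in peroxisomes and which glutathione peroxidases and peroxiredoxins reduce elsewhere in the cell with electrons that come from NADPH. Nrf2 is held low by Keap1 and, when oxidants or electrophiles block Keap1, accumulates and binds antioxidant response elements in the promoters of many such enzymes. HSCs rest mostly in a low-oxygen niche and depend strongly on glycolysis, and in mouse models a rise of reactive oxygen species drives them out of quiescence, which is why this system is often examined in HSC ageing.

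The authors multiplied the reads of each library by 1 factor and rounded the products, and the values so made are called scaled values below. The spacing of the scaled values put the depth of the 8 libraries at 22.3 M to 66.5 M reads, and between 1256 and 26520 reads stood behind each value of these 10 genes in a library. Kit, the receptor tyrosine kinase used in the sort, had scaled values of 56382 and 54958.5 in young 13 and 14. In old 13 and 14 it had 57824 and 63949.5, both above the young ones. Other genes tied to the sort also separated the ages. Slamf1, which encodes CD150, had 1597 and 1735.5 in young 13 and 14 and 3175 and 3083 in old 13 and 14, and Ly6a, which encodes Sca-1, 2621 and 2573.5 in young and 3519 and 5566 in old. Abcg2, the transporter behind the side population, had 4521.5 and 4726 in young and 5150.5 and 6647.5 in old, and the part of these differences in the results below was not tested. Markers of other blood cells were also detected, and their summed scaled values differed between replicates of the same age. The 13 neutrophil markers, led by Mpo, summed to 14553.5 and 55933.5 in replicates 13 and 14 at 4 months and to 13916.5 and 28516 in those at 24 months. The 10 matched monocyte and macrophage markers, led by Lyz2, summed to 9010.5, 21543.5, 8960 and 15827 in the same order, and the 11 erythroid rows, led by Car2, to 53104.5, 55962, 48673 and 56802.5. Among lists of other cells, the sums of 9 megakaryocyte and platelet markers separated the ages (29489 and 37352 against 56535.5 and 64500.5). Vwf alone had 10990 and 13906 against 35059.5 and 40728.5. So did the sums of 9 T and NK markers (1747 and 2766 against 3245.5 and 5058.5), with Klrb1c alone at 372.5 and 470 against 2495 and 4036. Sums of 7 endothelial markers, which share Vwf, and of 9 stroma markers (7108 and 7615 against 3278 and 3012) separated them too. The 8 B cell markers did so by less (1163 and 1224 against 1277 and 1258.5), with Cd79b at 1033 and 1005.5 against 1066 and 1195. Without the leading gene, the megakaryocyte and B cell sums overlapped between the ages, and the T and NK sums were lower in old. No marker row was at 0 in all 4 replicates, and in bulk RNA fewer cells of a type and less RNA per cell cannot be told apart.

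All 10 genes were expressed at both ages, over a 17-fold range of length-corrected level. In FPKM, that is, scaled value per length, Gpx1 came first with 311 ± 1.2 at 4 months and 294 ± 78.2 at 24 months (mean ± SD, n = 2 per age), and Sod1 followed with 268 ± 5.4 and 303 ± 71.6. Their ranges over the 4 replicates overlapped, so the order of this pair was not resolved. Prdx2, Prdx1 and Prdx6 formed the next step, with means over the 4 replicates of 180, 161 and 119 FPKM, and neighbours within that step overlapped. Prdx4, Gpx4, Cat and Nfe2l2 lay between 43 and 55 FPKM, again with each neighbour overlapping the next. Sod2 was lowest, at 17.1 ± 1.8 FPKM in young and 18.5 ± 4.6 FPKM in old HSCs, and its highest replicate stayed below the lowest replicate of every other gene of the group. The cytosolic dismutase thus stood above the mitochondrial enzyme by 14.8- to 16.7-fold in FPKM, in every replicate.

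**Figure D1:**
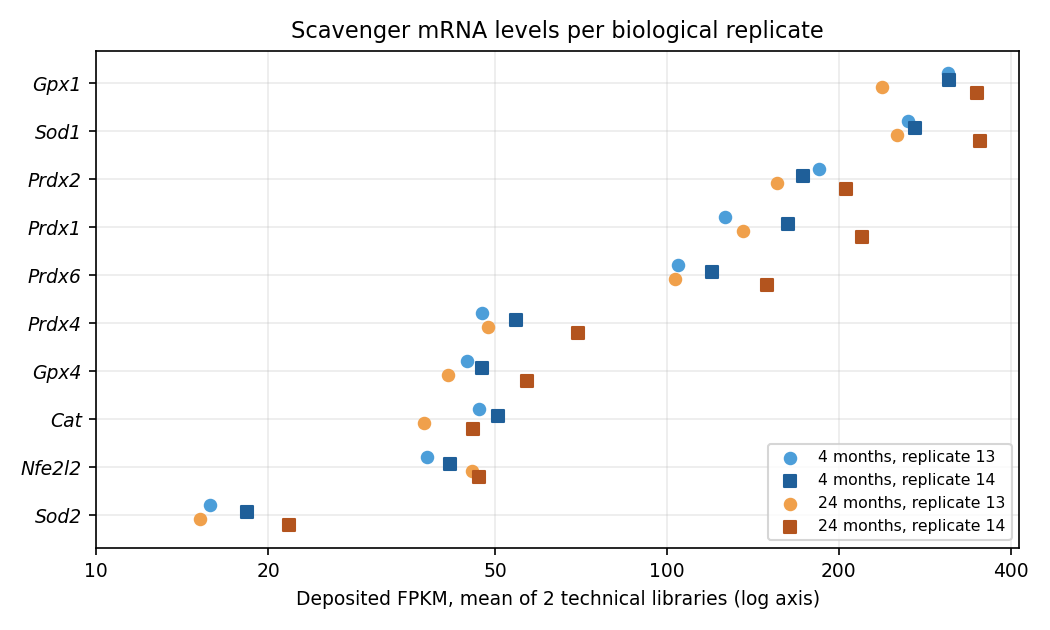
Deposited FPKM (horizontal log axis) of each scavenger gene in the 4 biological replicates, genes ordered by their mean, each point the mean of 2 technical libraries. Gpx1 and Sod1 lie highest and Sod2 lowest, and the 24-month replicate 14 is the highest of the 4 points for 9 genes of the 10.

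None of the 10 genes passed the age comparison, which asked whether each gene differed between old and young HSCs. With limma across the 18318 genes tested, 0 of 10 had an adjusted p under 0.05, 0 of 10 had an unadjusted p under 0.05, and limma-voom also called 0. In the same fit 2.55% of all tested genes were called (2.01% higher and 0.54% lower in old HSCs), and 14% had an unadjusted p under 0.05. In the authors' deposited table, which calls 14.2% of its tested genes at an FDR under 0.05, 0 of the 10 genes passed either. The median log2 fold change of old over young was 0.12 for the 10 genes and 0.04 for all tested genes. The 95% intervals of single genes, not adjusted for their number, ran between 0.656-fold and 1.83-fold, so a 2-fold change in either direction lay outside each of them.

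Both dismutases had old replicates on either side of the young ones. Sod1, the copper and zinc enzyme of the cytosol (chr16:90220987-90226569 in mm9), had scaled values of 8507 and 8753.5 in young 13 and 14 and of 8118 and 11373.5 in old 13 and 14. The young replicates nearly coincided, whereas old 13 was the lowest and old 14 the highest of the 4. The log2 fold change was 0.16 (SE 0.19, 95% interval -0.30 to 0.61, limma adjusted p = 0.804). Sod2, the manganese enzyme of the mitochondrial matrix (chr17:13200705-13210985), had scaled values of 3022 and 3513 at 4 months and of 2896 and 4150.5 at 24 months. It showed the same order of replicates, with old 13 lowest and old 14 highest, and a log2 fold change of 0.09 (SE 0.20, interval -0.39 to 0.56). Sod1 made up 94.4% and 93.7% of the summed dismutase FPKM in young 13 and 14 and 94.3% and 94.2% in old 13 and 14, so the balance of the pair moved by less than 1 point while its total ranged from 267.7 to 375.5 FPKM.

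Cat was the enzyme gene whose ages did not overlap. Catalase, the haem enzyme of peroxisomes (chr2:103294061-103325310), had scaled values of 5933.5 and 6411.5 in young 13 and 14 and of 4760 and 5808 in old 13 and 14. Both old replicates lay below both young ones, with a narrow gap between old 14 and young 13. The single libraries of young 13 had 6022 and 5845, and those of old 14 had 5789 and 5827. The log2 fold change was -0.23 (SE 0.16, interval -0.60 to 0.14, limma adjusted p = 0.621), and the authors' deposited table gives a log2 fold change of -0.255 with an FDR of 0.214. Among all tested genes 17.4% had both old replicates below both young ones, and 42.1% did not overlap in either direction, against 2 of these 10.

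Gpx1 and Gpx4, selenoproteins that carry selenocysteine at the active site, did not separate by age. Gpx1, which reduces soluble hydrogen peroxide with glutathione (chr9:108241411-108242673), had scaled values of 16173.5 and 16262.5 at 4 months and of 12434 and 18198.5 at 24 months. The young values differed by less than 1% and the old ones by 1.46-fold, the widest contrast in replicate spread between the ages within the group. Its log2 fold change was -0.11 (SE 0.21, interval -0.61 to 0.39). Gpx4, which reduces lipid hydroperoxides in membranes and restrains ferroptosis (chr10:79516255-79519184), had scaled values of 2657.5 and 2832 at 4 months and of 2460.5 and 3385.5 at 24 months. The fold change was 0.07 on the log2 scale (SE 0.18, interval -0.36 to 0.51), again with old 13 lowest and old 14 highest. In FPKM Gpx1 exceeded Gpx4 by 6.96- and 6.57-fold in young 13 and 14 and by 5.78- and 6.15-fold in old 13 and 14.

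The 4 peroxiredoxins, thiol peroxidases that act at low peroxide concentrations, had fitted values at or above 0 and wide intervals. Prdx1 (chr4:116358204-116372605), a cytosolic enzyme recycled by thioredoxin, had scaled values of 8912 and 11489 at 4 months and of 9573 and 15502.5 at 24 months. Replicate 14 was above replicate 13 at both ages, and the young and old ranges overlapped. Its log2 fold change of 0.27 was the largest of the group (SE 0.26, interval -0.34 to 0.87, limma adjusted p = 0.738), and the authors' deposited table gives it the smallest FDR of the group, 0.0825.

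Prdx2 (chr8:87493547-87498212), the abundant peroxiredoxin of red cells, had scaled values of 8634 and 8096 at 4 months and of 7300.5 and 9614 at 24 months. The young replicates lay between the old ones, and the log2 fold change was 0.00 (SE 0.18, interval -0.42 to 0.42), with a sign that turned when the replicate totals were set equal (-0.03). The summed erythroid markers were, like Prdx2, higher in old 14 than in old 13 (48673 in old 13 and 56802.5 in old 14). Most of these sums was Car2, with 42235 and 50981.5, and the rest was lower in old 14. In the young pair the erythroid sum was higher in replicate 14 and Prdx2 in replicate 13. The part of erythroid cells in the values of Prdx2 was not tested. Prdx4 (chrX:151758463-151772997), the peroxiredoxin of the endoplasmic reticulum, had scaled values of 2290.5 and 2634 at 4 months and of 2347 and 3372 at 24 months, with a log2 fold change of 0.20 (SE 0.20, interval -0.28 to 0.67). Prdx6 (chr1:163170243-163181297), the 1-Cys enzyme that also reduces phospholipid hydroperoxides, had 12173.5 and 13957 at 4 months and 12036 and 17453 at 24 months, with a log2 fold change of 0.15 (SE 0.21, interval -0.35 to 0.66). In both genes old 14 alone stood well above the other 3 replicates.

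Nfe2l2 was the gene with the tightest old replicates. Its scaled values (chr2:75513576-75542698) were 4679.5 and 5127.5 in young 13 and 14 and 5618 and 5777 in old 13 and 14. Both old replicates lay above both young ones, an arrangement found in 24.7% of tested genes. The means were 4904 ± 317 at 4 months and 5698 ± 112 at 24 months (SD, n = 2 per age), a log2 fold change of 0.22 (SE 0.14, interval -0.11 to 0.55, limma adjusted p = 0.588). The authors' deposited table gives a log2 fold change of 0.188 with an FDR of 0.425. The message level says nothing of Nrf2 protein, which is controlled mainly by Keap1-dependent degradation.

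**Figure D2:**
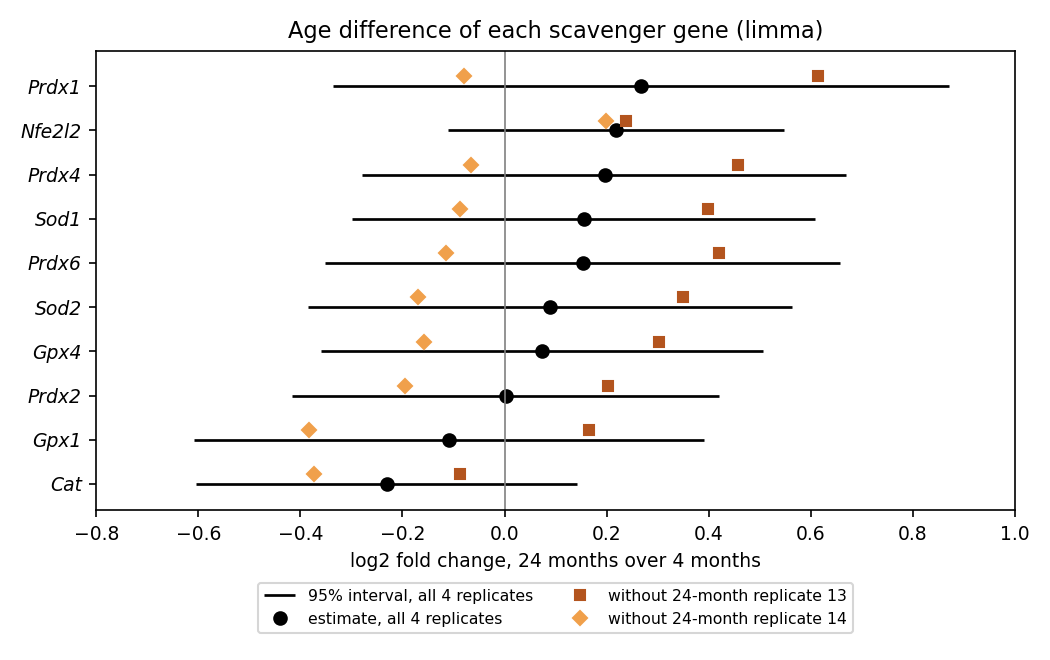
log2 fold change of old over young HSCs for each scavenger gene (circles) with its 95% interval (lines), and the estimate without old replicate 13 (squares) or without old replicate 14 (diamonds). All 10 intervals span 0, and 8 estimates change sign between the squares and the diamonds, all except Cat and Nfe2l2.

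The sequence that Nrf2 binds was looked up in the promoters of these genes, since it is how the factor recognises its target genes. Promoter windows of 300 bases from RefSeq (GRCm38.p6), 250 before and 50 after the start, were found for 9 members, Prdx6 not among them. The core TGACNNNGC, searched on both strands, was present in windows of 3 members, Nfe2l2, Prdx1 and Sod1, and in 12.4% of the 32851 windows of all genes. The match is in capitals below, 5′ to 3′ along the gene's strand. It reads forward in Nfe2l2 (chr2:75704879-75704913, minus strand, 240 to 232 bases before the start) and as the reverse complement in Prdx1 (chr4:116685450-116685490, plus strand, 133 to 125 bases before the start) and in Sod1 (chr16:90220690-90220730, plus strand, 56 to 48 bases before the start).
Nfe2l2: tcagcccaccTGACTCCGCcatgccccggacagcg
Prdx1: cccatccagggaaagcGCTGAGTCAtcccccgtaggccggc
Sod1: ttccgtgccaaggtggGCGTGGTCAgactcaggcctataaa
The AP-1 core TGANTCA, held by 7.81% of all windows, occurred only in the window of Prdx1 among the members and overlapped the match shown. The forkhead core GTAAACA, which FoxO factors bind and 3.65% of all windows hold, was in none of the 12 member windows. Of the genes with a match, the ages did not overlap for Nfe2l2 and overlapped for Prdx1 and Sod1. Their fitted log2 fold changes were 0.22, 0.27 and 0.16, and none passed. Whether a match goes with an age difference was not tested.

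In 9 of the 10 genes, all but Nfe2l2, the old replicates differed from each other by more than the fitted difference between the ages. Old 14 exceeded old 13 in 10 of 10 genes and was the highest of the 4 replicates in 9, the exception being Cat. The log2 difference of old 14 over old 13 was 0.70 for Prdx1, 0.55 for Gpx1, 0.54 for Prdx6, 0.52 for Prdx4 and for Sod2, 0.49 for Sod1, 0.46 for Gpx4, 0.40 for Prdx2 and 0.29 for Cat. Each of these 9 lay above the upper quartile of all tested genes (0.27, with a median of 0.01), and only Nfe2l2 at 0.04 lay within the middle of the distribution. Between the young replicates the same differences ran from -0.09 for Prdx2 to 0.37 for Prdx1, and 5 of 10 exceeded the upper quartile of 0.12.

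The spread between technical libraries was smaller than this. The technical libraries of a replicate differed by a median of 1.91% over 40 pairs, and the largest gap was 11.2%, for Gpx4 in old 13 (2598 and 2323 scaled values). The neutrophil and monocyte markers were also higher in old 14 than in old 13. Both sums were also higher in young 14 than in young 13, as were 9 of the 10 genes, all but Prdx2, by 1.01-fold for Gpx1 to 1.29-fold for Prdx1. Transcript length moved with the old replicates too. The median log2 difference of old 14 over old 13 was 0.08 in the shortest tercile of tested genes, which holds Sod1, Gpx1, Gpx4, Prdx1, Prdx2 and Prdx4, 0.05 in the middle tercile and -0.09 in the longest, which holds Sod2. Between the young replicates the same medians ran the other way, at -0.08, -0.04 and -0.03 from the shortest to the longest tercile. The part of cell make-up and of length in the replicate difference was not tested beyond these values.

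**Figure D3:**
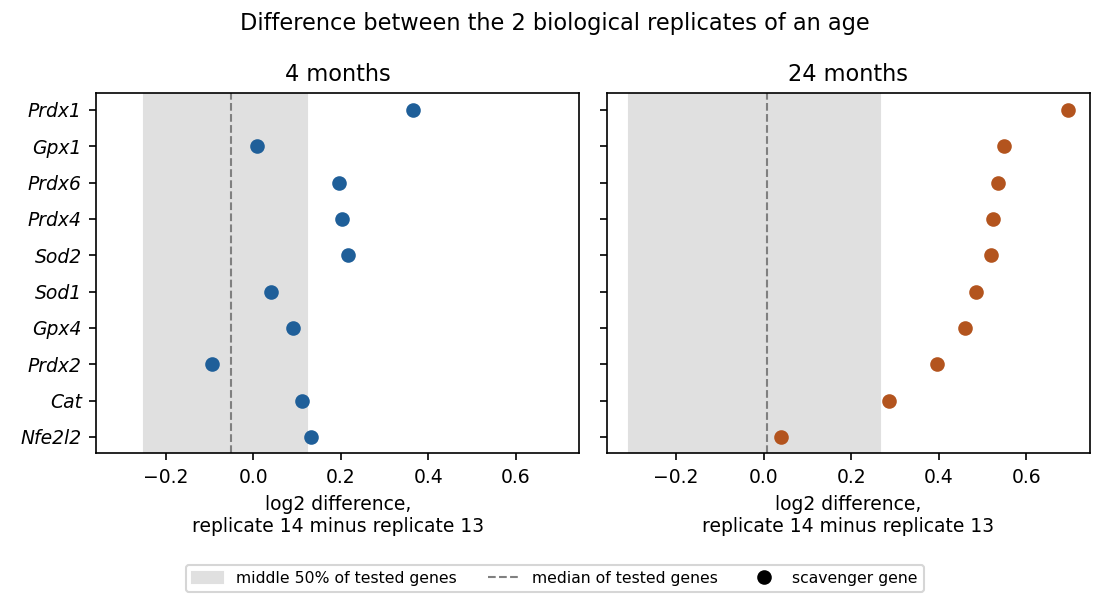
log2 difference of replicate 14 minus replicate 13 for each scavenger gene at 4 months (left) and 24 months (right), with the median (dashed) and the middle 50% (grey) of all 18318 tested genes. At 24 months 9 genes lie to the right of the grey band and Nfe2l2 inside it.

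The direction of most fitted values therefore rested on which old replicate was used. Without old 14, 9 of the 10 genes had a fitted value below 0, all but Nfe2l2, with Gpx1 at -0.38, Cat at -0.37 and Prdx1 at -0.08. Without old 13, 9 were above 0, all but Cat, with Prdx1 at 0.62, Prdx4 at 0.46 and Sod1 at 0.40. Cat stayed below 0 in each of the 4 fits that left out a replicate (-0.37 to -0.09) and Nfe2l2 above 0 (0.15 to 0.28), and none of the 10 genes passed in any of these fits.

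Within a replicate, the make-up of the pool of 7 peroxide-removing members can be read without the difference in total. Other tested enzymes of this kind, further peroxiredoxins among them, lie outside it. The percentages are therefore not shares of all peroxide-removing mRNA. The summed FPKM of the 7 genes Cat, Gpx1, Gpx4, Prdx1, Prdx2, Prdx4 and Prdx6 was 864.1 and 920 in young 13 and 14 and 760.7 and 1096 in old 13 and 14. Catalase held 5.41% and 5.49% of it at 4 months and 4.93% and 4.18% at 24 months. Gpx1 held 35.9% and 33.9% at 4 months and 31.3% and 31.8% at 24 months. Both shares were lower in each old replicate than in each young one.

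The shares of Prdx1, Prdx4, Prdx6 and Gpx4 were higher in both old replicates. Prdx4 held 5.48% and 5.92% at 4 months and 6.37% and 6.36% at 24 months, and Prdx6 12.1% and 13% at 4 months and 13.6% and 13.7% at 24 months. Prdx1 held 14.6% and 17.7% at 4 months and 17.8% and 20% at 24 months, with young 14 and old 13 almost level. Gpx4 held 5.16% in young 13 and young 14, 5.42% in old 13 and 5.18% in old 14, the smallest gap of the 4. Prdx2 overlapped between the ages. Shares of a fixed total depend on each other, and with 2 replicates against 2 a two-sided exact permutation test cannot give a p below 0.333, so these are descriptions without a test. Single scaled values did not overlap between the ages in 42.1% of all tested genes. Shares within pools of other genes were not computed.

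**Figure D4:**
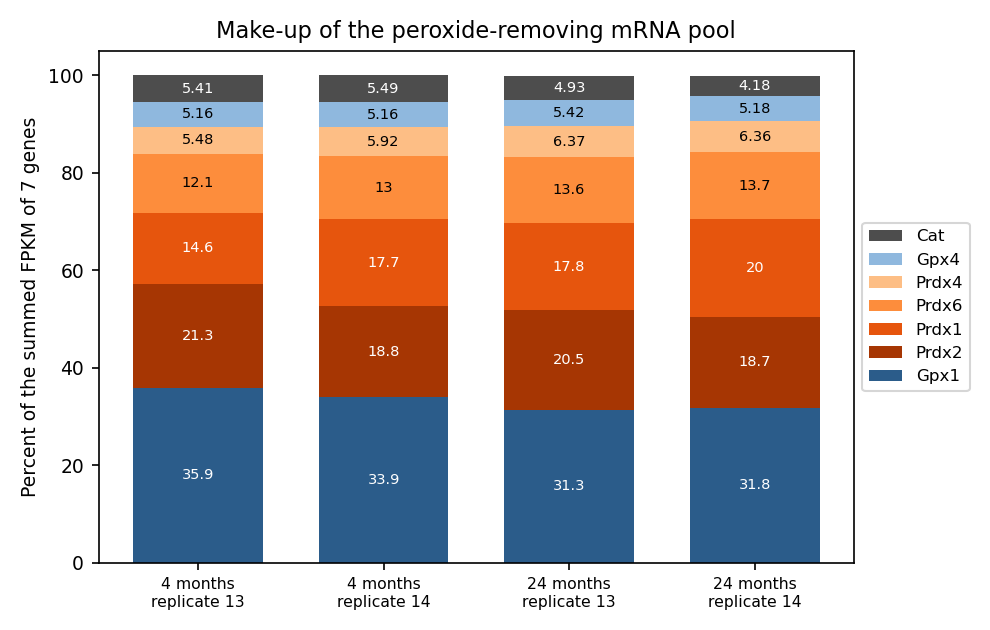
Percent of the summed FPKM of 7 peroxide-removing genes held by each gene (stacked bars from 0) in the 4 biological replicates. Catalase (top) holds 5.41% and 5.49% at 4 months against 4.93% and 4.18% at 24 months, and Gpx1 (bottom) 35.9% and 33.9% against 31.3% and 31.8%.

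The genes around the 10 members were read from 7 lists of the same pathway, with 99 distinct genes tested, of which 3 rose and 1 fell, or 4.04% against 2.55% of all tested genes. Their median log2 fold change was 0.05, and limma-voom called 2 of them. The rises were all in the list of other peroxide and superoxide enzymes, with 3 of 16 tested genes and a list median of 0.09. Gpx8, a peroxidase of the endoplasmic reticulum, had scaled values of 85.5 and 74 at 4 months and of 252.5 and 364.5 at 24 months, a log2 fold change of 1.92 (SE 0.27, limma adjusted p = 0.0168). Gpx3, the secreted glutathione peroxidase of plasma, had 271.5 and 226 at 4 months and 528 and 626 at 24 months, a log2 fold change of 1.21 (SE 0.20, limma adjusted p = 0.0306). Oxr1, a gene that protects against oxidative damage, had 5044.5 and 6272.5 at 4 months and 10054 and 13724 at 24 months, a log2 fold change of 1.06 (SE 0.20, limma adjusted p = 0.0482).

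In these 3 genes every old replicate exceeded every young one, which a call with n = 2 per age nearly requires, while in Gpx1 and Gpx4 the ages overlapped. Gpx8 and Gpx3 were also far less abundant per length, at 6.09 and 7.6 FPKM in old HSCs. Srxn1, the sulfiredoxin that repairs overoxidised peroxiredoxins, had 1400 and 1264.5 at 4 months and 2154.5 and 2314 at 24 months and missed the threshold (limma adjusted p = 0.0509). Gpx8 kept its call in 11 of 12 other settings of the processing, Gpx3 in 9 and Oxr1 in 5. A fit without a replicate leaves 1 sample at that age, so whether these calls hold without a replicate cannot be judged.

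Of 24 tested Nrf2 target enzymes 0 rose and 1 fell, and 6 genes had an unadjusted p under 0.05, as had 14% of all tested genes. The list median was 0.05 on the log2 scale, near the 0.04 of all tested genes. Hmox1, the inducible haem oxygenase, had scaled values of 858.5 and 969 at 4 months and of 507.5 and 494.5 at 24 months, a log2 fold change of -0.86 (SE 0.16, limma adjusted p = 0.0468). It kept that call in 5 of 12 other settings, and fits without a replicate cannot judge it for the reason given above. Ephx1, a microsomal epoxide hydrolase, was 446.5 and 501.5 at 4 months and 820 and 1060.5 at 24 months (limma adjusted p = 0.0524). Of the 6 with an unadjusted p under 0.05, 5 (Srxn1, Ephx1, Cbr3, Gstm1 and Me1) had fitted values above 0 and Hmox1 below. Of all 24, 17 were above 0, and the share above 0 among all tested genes was not counted.

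The lists that supply reducing power held no gene that passed in limma. Of 18 genes of glutathione and thioredoxin supply 0 passed in limma, and 0 had an unadjusted p under 0.05, with a list median of 0.105. The smallest p belonged to Glrx2, a mitochondrial glutaredoxin, with a log2 fold change of 0.32, and to Txnip, the inhibitor of thioredoxin, with 61783.5 and 68226 at 4 months and 75552.5 and 103232.5 at 24 months. Of 12 NADPH supply genes (list median -0.04) 0 passed and 2 had an unadjusted p under 0.05, Mthfd2 of mitochondrial folate metabolism with a log2 fold change of -0.58 and the malic enzyme Me1 with 0.69.

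Of 14 Nrf2 regulators and partners (list median 0.05) 0 passed in limma and 0 had an unadjusted p under 0.05. Crebbp, a coactivator, at -0.37 and Mafk, a small Maf protein, at -0.24 had the smallest p. Of 10 selenoprotein synthesis genes (list median 0.01) 0 passed, with 0 at an unadjusted p under 0.05, and Secisbp2, which reads selenocysteine insertion elements, at -0.39 and the selenium carrier Sepp1 at 0.27 came first.

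Of 16 tested genes for sources of superoxide and peroxide (list median -0.09) 0 passed in limma, with 2 at an unadjusted p under 0.05. Ncf4, an NADPH oxidase subunit, was first in this list by p, with 369 and 577 at 4 months and 148 and 271.5 at 24 months. It was lower in each old replicate than in each young one. The phagocyte oxidase is a gene product of neutrophils and monocytes, whose summed markers differed between replicates as given above, and their part in these values was not tested.

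**Figure D5:**
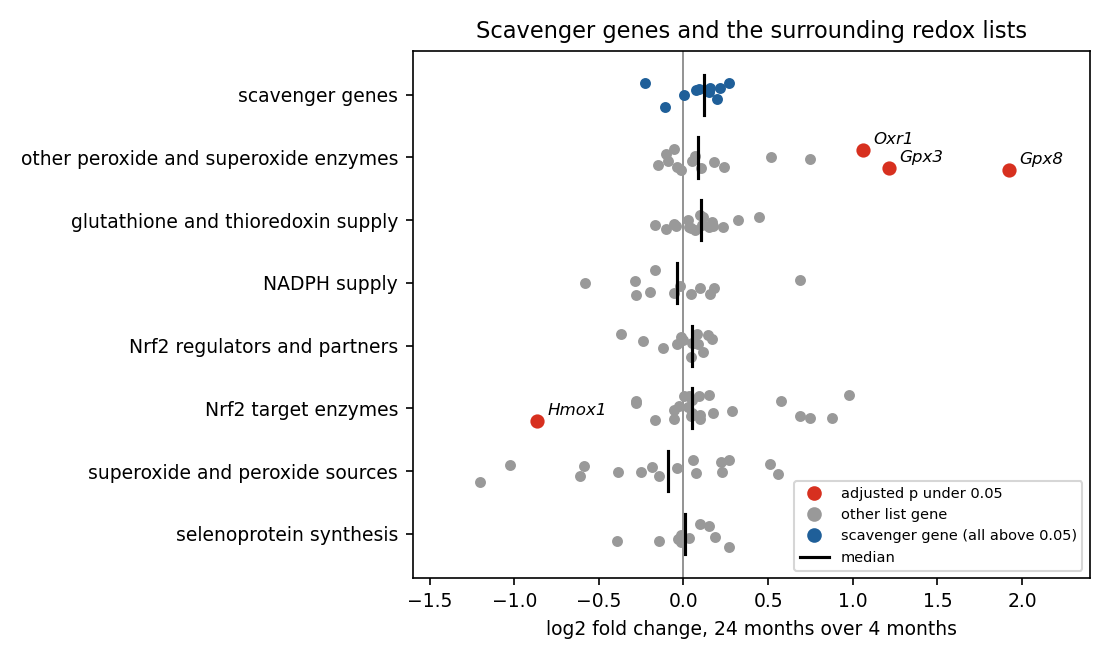
log2 fold change of old over young HSCs (horizontal axis) for the 10 scavenger genes and for each tested gene of 7 surrounding lists (points, spread vertically for legibility), with the list median (bar). Gpx8, Gpx3, Oxr1 and Hmox1, with an adjusted p under 0.05, are in red, and the 10 scavenger genes lie between -0.23 and 0.27.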

How the data were processed

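Polyadenylated RNA of sorted HSCs was sequenced as 8 libraries. Per the file headers, each row holds a count-like column and an FPKM column, and its gene model joins transcripts of several annotations. The submitters' processing notes give mm9 as the build and list DESeq with neither version nor purpose. For the aligner, the counter and the use of strand, not given in the sources used here, no assumption was made, and reads shared with pseudogene copies could be split in unknown ways. The count-like deposited values are a score, made by multiplying a library's reads by a constant (0.617 to 1.84) and rounding. This was checked on the values: 4 libraries skip whole numbers, and 0 genes fell on a skipped number up to 100. The deposited FPKM equals this score divided by length, with the same constant in all libraries. Log2 fold changes and FDR, an adjusted p-value, were copied from the authors' deposited table.

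Technical libraries were averaged. limma 3.58.1 (R 4.3.3) was fitted to log2(value + 0.5) with a term for age alone, a prior with a trend on level and Benjamini-Hochberg adjustment. Genes needed a scaled value of 10 or more in 2 or more of the 4 replicates, which 18318 of 38172 reached, all 10 members included. Fold changes are on that scale and understate low genes. The fit was checked on simulated data. Alternatives changed the pseudocount, filter, scaling, technical libraries, variance model, block and samples. The members, the lists and the tests were chosen with earlier results of these data known. All members were named, as were the sort genes Kit, Slamf1, Ly6a and Abcg2, the leading gene of some marker lists, and list genes that passed or, in lists without any, the 2 with the smallest p. Srxn1, Ephx1, Cbr3 and Gstm1 are additions to this rule, made with their values known. The values of 1 gene that the rule covers are not reported here.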

Additional observations from a re-analysis of the deposited data

How the results depend on the processing

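The count of members that passed stayed at 0 under all 16 alternatives, and without 1 replicate it ranged from 0 to 0. Of 120 member values under the 12 alternatives that keep all replicates, 116 kept their direction and their side of the threshold and 4 turned. The 4 were all Prdx2, at -0.0298 with equal totals, -0.0432 with median-ratio factors, -0.0164 with the second technical libraries only and -0.0307 with limma-voom weights; the cause was not tested. Over the 4 fits without a replicate the log2 fold change ranged from -0.0881 to 0.40 for Sod1, -0.17 to 0.35 for Sod2, -0.37 to -0.09 for Cat, -0.38 to 0.17 for Gpx1, -0.16 to 0.30 for Gpx4, -0.08 to 0.62 for Prdx1, -0.20 to 0.20 for Prdx2, -0.0656 to 0.46 for Prdx4, -0.12 to 0.42 for Prdx6 and 0.15 to 0.28 for Nfe2l2. Over all genes limma called 467, of which 368 were higher and 99 lower in old HSCs. With no filter on low values it called 148 (62 higher, 41.9% of calls against 78.8%), with a mean FPKM of at least 1 it called 302 (237 and 65), with the first technical libraries only 293 (242 and 51), with the second 52 lower, and with a prior with no trend 56 lower. Without 1 replicate the calls ranged from 0 to 274, the higher from 0 to 206 and the lower from 0 to 68, and they were 0 without old 13 and without old 14. Both ages carry the numbers 13 and 14, but no label says that a number marks a shared animal, batch or day. Their deviations correlated over genes (r = 0.54), and with the replicate block limma called 2766 genes (1698 and 1068) and 0 of the 10 members, with a smallest adjusted p of 0.22 for Prdx1. In the surrounding lists the block fit called 5 Nrf2 targets higher and 1 lower, 5 other enzymes higher, 4 superoxide and peroxide sources lower and 1 NADPH gene in each direction. Without old 13, 4 members (Sod1, Prdx1, Prdx4 and Prdx6) had an unadjusted p under 0.05, against 20% of all tested genes, and without old 14, 2 (Cat and Gpx1), against 10.6%. In these fits the spread comes from the young replicates, and the lone old one is assumed to vary like them. The width of the intervals comes from the spread between the 2 replicates per age and from the prior shared over all tested genes. The part of read depth in it was not tested.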

Other observations

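Setting the scavenger genes against each other within a replicate removes what moves all of them together. Of the 45 pairs of members, 22 had log2 ratios of scaled values that did not overlap between the ages, or 48.9%, near the 46.8% of all pairs of tested genes. The ratio of Cat to its partner was lower in old than in young HSCs, without overlap, in 8 of its 9 pairs. The same held for Gpx1 in 7 of its 9. The ratio to the partner was higher in old HSCs in 5 of 9 pairs for Prdx4 and in 4 of 9 for Sod1. For each of these 4 genes, 0 non-overlapping pairs went in the other direction. So it was for Prdx1 (3 pairs, higher in old) and Nfe2l2 (2 pairs, higher in old). The direction of a pair is set by the order of the fitted fold changes, lowest for Cat (-0.23) and Gpx1 (-0.11). It is therefore no separate result, and counts per gene were not made outside the members. These counts describe shifts of a ratio, not which gene of a pair was more abundant. The scaled value of Cat per unit of Nfe2l2 was 1.27 and 1.25 in young 13 and 14 and 0.847 and 1.01 in old 13 and 14. Per unit of Sod1 it was 0.697 and 0.732 at 4 months and 0.586 and 0.511 at 24 months, and per unit of Prdx1 0.666 and 0.558 against 0.497 and 0.375. These ratios were chosen after the values were seen, share members with each other and carry no test.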
